A study of Rattus norvegicus with 6 samples.

Results

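Axon guidance ligands and receptors are secreted and membrane-bound cues, and the surface proteins that read them, which steer growing axons. They were taken here as array probes whose transcript accession belongs to a rat gene of the semaphorin (Sema3 to Sema7), plexin, neuropilin, ephrin, Eph receptor, Slit, Robo, netrin, Unc5 or Dcc families. The rule names these families' genes by symbol and does not take in every one of them. This gave 67 probes for 52 genes, of 30367 probes and 15443 named genes on the array. Of these genes, 50 had a probe well above background on at least 3 of the 6 arrays and were tested. The netrin gene Ntn1 passed that limit on 0 arrays and the ephrin gene Efna5 on 1 sham array, so neither was tested.

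The arrays compared brain tissue of 3 sham-operated rats, the control group, with what the labels call peripheral brain tissue of 3 rats that had bled into the brain (intracerebral hemorrhage, ICH). The series title speaks of tissue around the hematoma, the clot. All 6 samples carry the label day 1 under age, and the labels give no strain, sex or way of making the bleed. The series design text calls the second group transfected replicates, which no sample label repeats. The labels call the arrays of each group biological replicates. Each sample had 1 array read in 1 colour, with 58717 spots other than controls, of which 81.8% to 85.4% were well above background and 0 were saturated. The number of arrays limits the precision.

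Guidance cues act on the growth cone, the motile tip of an axon, by attraction or repulsion. Secreted Slits repel axons through Robo receptors, and netrins attract through Dcc and repel through Unc5 receptors. Class 3 semaphorins are secreted and signal through plexins, mostly with a neuropilin as co-receptor, while the other semaphorins sit in the membrane. Ephrins are themselves bound to the membrane and signal into the cell with the Eph receptor and into their own. Many of these genes stay active in the adult brain, in neurons, glia and vessels, where they act on synapses and on blood vessel growth.

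Levels are log2 intensities from which the 75th percentile of the array was subtracted. Every value given per array is relative to the mean of the 3 sham arrays, and arrays are listed in the order of their replicate numbers. Differences are ICH minus sham on the log2 scale, ± SE from limma, with n = 3 arrays in each group. In bulk tissue, fewer cells of a type and less RNA per cell cannot be told apart.

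No guidance gene passed the test over all genes. With limma and Benjamini-Hochberg adjustment, 0 of 50 were called at an adjusted p under 0.05, as were 0 of all 22179 rows tested (0.0%). At an unadjusted p under 0.05, 10 of the 50 members were higher in ICH, where 6.16% of all rows were. Another 2 members were lower, where 8.56% of all rows were. Among all rows with a gene symbol the shares were 7.04% higher and 7.32% lower. In either direction the members numbered 12, or 24.0%, against 14.7% of all rows and 14.4% of those with a symbol. The 10 higher were the Slit genes Slit1 and Slit3, the netrin receptor genes Unc5a, Unc5c and Dcc, the semaphorin genes Sema3e, Sema5a and Sema7a, the co-receptor gene Nrp1 and the Eph receptor gene Epha7. The 2 lower were Sema3g and Ephb1.

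All 3 ICH arrays lay above all sham arrays for 11 members, 22.0%, where 11.0% of all rows and 12.3% of rows with a symbol did. They lay below for 3 members, where 16.5% and 15.5% did. The median difference over the 50 members was 0.14, against −0.04 over all rows, with 32 members (64.0%) above 0 and 18 below, where 45.9% of all rows and 48.7% of rows with a symbol lay above 0. The median member stood at 0.08, −0.06 and 0.02 on the 3 sham arrays and at 0.16, 0.17 and 0.08 on the 3 ICH arrays, so sham 1 and ICH 3 were close together. The spread of a member was wider among ICH arrays (median SD 0.38) than among sham arrays (0.19), where all rows gave 0.31 and 0.14.

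**Figure D1:**
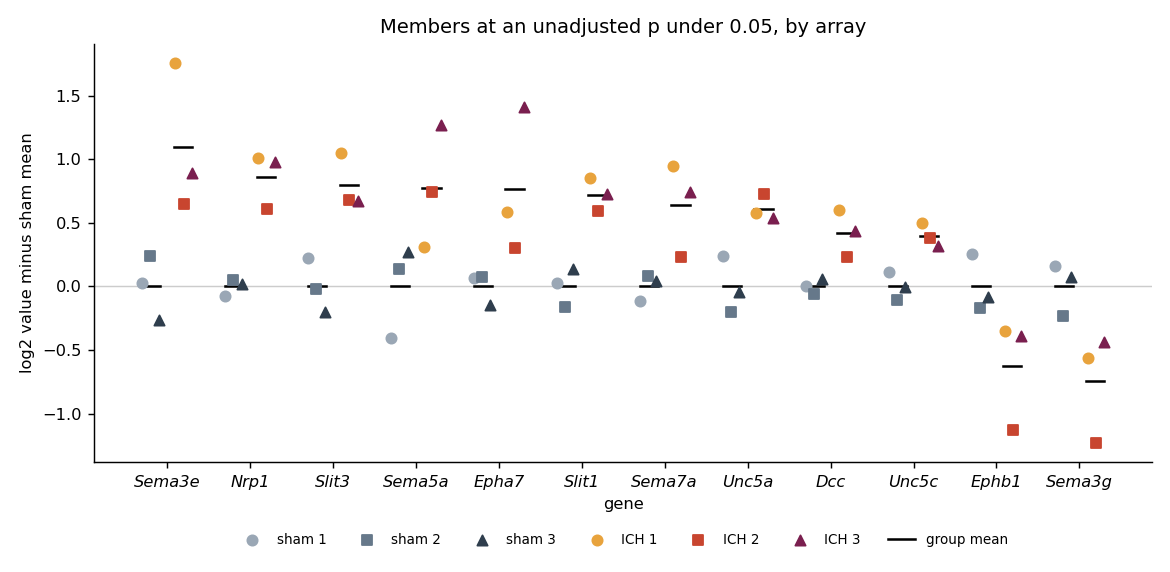
Log2 value minus the sham mean (vertical axis) of the 12 guidance genes at an unadjusted p under 0.05, ordered by difference; each point is 1 array and the short bars are group means. For each of the 12 genes the ICH and sham points do not overlap, and the narrowest gap is that of Sema5a, 0.04.

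Promoter windows of RefSeq (build GRCr8, 250 bases before to 50 after the start of the gene) were matched by symbol for 41 of the 52 genes. Shown are those of Nrp1, Slit3 and Unc5a, because these had the smallest p of the genes with a window, and they differ in how often they hold the GC box GGGCGG, bound by Sp1, in capitals on either strand.
Nrp1, chr19:73256307-73256606, plus strand: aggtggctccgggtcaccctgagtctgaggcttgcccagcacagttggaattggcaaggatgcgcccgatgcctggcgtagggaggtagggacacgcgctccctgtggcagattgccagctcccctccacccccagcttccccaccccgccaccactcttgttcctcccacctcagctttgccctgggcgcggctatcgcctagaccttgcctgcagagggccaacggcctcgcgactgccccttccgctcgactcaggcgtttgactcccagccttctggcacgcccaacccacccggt
Slit3, chr10:20075679-20075978, plus strand: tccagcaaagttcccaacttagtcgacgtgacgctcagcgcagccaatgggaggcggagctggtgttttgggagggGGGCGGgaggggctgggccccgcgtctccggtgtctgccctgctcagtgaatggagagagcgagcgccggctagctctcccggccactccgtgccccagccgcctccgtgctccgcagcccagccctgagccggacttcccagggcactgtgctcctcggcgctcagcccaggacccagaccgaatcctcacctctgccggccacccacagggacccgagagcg
Unc5a, chr17:9675614-9675913, minus strand: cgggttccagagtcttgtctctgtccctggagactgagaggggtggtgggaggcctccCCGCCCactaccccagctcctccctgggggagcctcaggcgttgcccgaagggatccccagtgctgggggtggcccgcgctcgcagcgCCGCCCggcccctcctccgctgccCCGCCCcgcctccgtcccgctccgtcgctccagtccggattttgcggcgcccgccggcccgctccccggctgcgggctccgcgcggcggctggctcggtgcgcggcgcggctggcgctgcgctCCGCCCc
The window of Unc5a held 4 GC boxes and 37 CpG dinucleotides, that of Slit3 held 1 and 24, and that of Nrp1 held 0 and 18. Over the 42 windows of members, 22 held a GC box, 52.4%, against 41.8% of 21851 windows of protein-coding genes. The AP-1 letters TGANTCA, the same on both strands, were in 0 of the 42 windows, against 6.53% of all. The E-box CAGATG, searched as CATCTG too, was in 2, or 4.76%, against 14.9%. The hypoxia response core ACGTG, searched as CACGT too, was in 8 of the 42, against 19.8% of all. The windows of members were also richer in G and C, with medians of 60.7% GC and 16 CpG, against 55.0% and 11 over all windows. The part of this composition in the shares of matches was not tested. These letter matches describe the windows and show no binding.

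Of the Slits, secreted repellents of axons, 2 of 3 were higher in ICH at an unadjusted p under 0.05. Slit1 stood at 0.03, −0.16 and 0.14 on the 3 sham arrays and at 0.85, 0.59 and 0.72 on the 3 ICH arrays. It was 1.65-fold higher (0.72 ± 0.14, unadjusted p = 0.00233, limma adjusted p = 0.270), with every ICH array at least 0.46 above every sham array. Slit3 stood at 0.22, −0.02 and −0.20 on sham arrays and at 1.05, 0.68 and 0.67 on ICH arrays. Its difference was 0.80 ± 0.18, or 1.74-fold (unadjusted p = 0.00418, limma adjusted p = 0.301), and the groups were apart by 0.45. For both genes the ICH arrays varied about as much as the sham arrays, with SDs of 0.13 against 0.15 for Slit1 and 0.21 in each group for Slit3. The remaining member, Slit2, differed by 0.24 ± 0.19 (unadjusted p = 0.264), and its second probe by 0.30.

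Of the Slit receptor genes, Robo1 and Robo2 were tested, and neither reached an unadjusted p under 0.05. The difference between Slits and their receptors was not tested. Robo1 stood at −0.28, 0.27 and 0.01 on sham arrays and at 0.22, −0.45 and 0.54 on ICH arrays (0.10 ± 0.29, unadjusted p = 0.736). Robo2 differed by −0.01 ± 0.24 (unadjusted p = 0.980), and the groups of both genes overlapped. The second probe of Robo2 gave −0.36 (limma unadjusted p = 0.170). Robo1 and Robo2 changed sign when single arrays were left out.

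Of the 4 netrin receptor genes tested, 3 were higher in ICH at an unadjusted p under 0.05, and of the 3 netrin genes tested 0 were. The difference between receptors and ligands was not tested. Unc5a, a repulsive netrin receptor of neurons, stood at 0.24, −0.20 and −0.04 on the 3 sham arrays and at 0.58, 0.72 and 0.53 on the 3 ICH arrays. It was 1.53-fold higher (0.61 ± 0.16, unadjusted p = 0.00838, limma adjusted p = 0.301), and the lowest ICH array lay 0.29 above the highest sham array. Unc5c, of the same subfamily, was at 0.11, −0.10 and −0.01 on sham arrays and at 0.50, 0.38 and 0.32 on ICH arrays (0.40 ± 0.13, unadjusted p = 0.0211, limma adjusted p = 0.304). The second probe of Unc5c passed the background limit on 0 sham arrays and 2 ICH arrays. Its measured values were −0.59, −0.12 and 0.71 on sham arrays and 2.71, 0.18 and 2.73 on ICH arrays, so ICH 2 lay inside the sham range. The mean of all 3 ICH arrays, ICH 2 at its measured value, was 2.35-fold above a limit set for the sham arrays. That limit was the mean over sham arrays of the array's lowest well-measured signal, or of the probe's value where higher. Since not every ICH array was well above background, the 2.35-fold is no firm lower bound.

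Dcc, the attractive netrin receptor, was at 0.00, −0.06 and 0.06 on sham arrays and at 0.60, 0.23 and 0.43 on ICH arrays. Its difference was 0.42 ± 0.14 (unadjusted p = 0.0256, limma adjusted p = 0.307). With normexp background correction it was 0.13 (unadjusted p = 0.302), so the size for Dcc rested on the background handling. The fourth receptor, Unc5b, known from blood vessels as well as axons, differed by −0.17 ± 0.29 (unadjusted p = 0.576).

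Among the ligands, Ntn3 had a difference as large as that of Dcc with a wider spread, at 0.13, −0.25 and 0.12 on sham arrays and 0.65, 0.56 and 0.07 on ICH arrays (0.43 ± 0.21, unadjusted p = 0.0851). ICH 3 lay within the sham range, and without it the difference of Ntn3 was 0.61 (limma unadjusted p = 0.0190). Ntn4, a netrin of basement membranes, differed by −0.10 ± 0.33 and Ntn5 by 0.12 ± 0.33 (unadjusted p = 0.770 and 0.721). Ntn1, the main ligand of Dcc in axon guidance, gave no value here, as its probe was below the limit on all 6 arrays.

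Class 3 semaphorins went both ways. Sema3e, which binds plexin D1 without a neuropilin, stood at 0.03, 0.24 and −0.26 on sham arrays and at 1.76, 0.65 and 0.89 on ICH arrays. It was 2.14-fold higher (1.10 ± 0.32, unadjusted p = 0.0130, limma adjusted p = 0.301), the largest upward difference among the 50 members. With normexp background correction the difference of Sema3e was 0.72, and without ICH 1 it was 0.77. In the other direction Sema3g, a semaphorin known from arterial endothelium, stood at 0.16, −0.23 and 0.07 on sham arrays and at −0.56, −1.23 and −0.43 on ICH arrays. That difference of −0.74 ± 0.25 corresponds to a level 1.67-fold higher in sham (unadjusted p = 0.0236, limma adjusted p = 0.304). It was −0.40 with normexp background correction, and the second probe of Sema3g gave −0.13 (limma unadjusted p = 0.494). Sema3b differed by −0.30 ± 0.21 (unadjusted p = 0.204), and Sema3c and Sema3d lay above 0 without reaching the threshold.

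Sema3a, the classical repellent that binds Nrp1, is named after its values were seen, because its sham arrays disagreed. It stood at 0.94, −0.41 and −0.53 on the 3 sham arrays and at −0.89, −0.09 and −1.58 on the 3 ICH arrays (−0.85 ± 0.53, unadjusted p = 0.156). Sham 1 was far above the other two sham arrays, and ICH 2 lay above these.

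Nrp1, which encodes the co-receptor that Sema3a and vascular endothelial growth factor share, had the smallest p of all members. It stood at −0.07, 0.05 and 0.02 on the 3 sham arrays and at 1.01, 0.61 and 0.98 on the 3 ICH arrays. The level was 1.82-fold higher in ICH (0.86 ± 0.16, unadjusted p = 0.00134, limma adjusted p = 0.230). The lowest ICH array was 0.56 above the highest sham array. The related Nrp2 was at −0.14, 1.45 and 0.43 on ICH arrays, with ICH 1 inside the sham range (0.58 ± 0.40, unadjusted p = 0.195). Of the 4 plexin genes tested, receptors that pass the signal on, none reached the threshold. Plxnb3, a plexin of oligodendrocytes, differed by 0.01 ± 0.25 (unadjusted p = 0.957), and Plxna2, Plxna3 and Plxnb2 lay between −0.15 and 0.43.

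Of 11 membrane semaphorins, 2 were higher at an unadjusted p under 0.05. Sema7a, which is held by a lipid anchor and acts through integrins and plexin C1, stood at −0.12, 0.08 and 0.04 on sham arrays and at 0.95, 0.23 and 0.74 on ICH arrays (0.64 ± 0.21, unadjusted p = 0.0225, limma adjusted p = 0.304). Sema5a, which carries thrombospondin repeats, stood at −0.40, 0.13 and 0.27 on sham arrays and at 0.31, 0.74 and 1.27 on ICH arrays (0.77 ± 0.30, unadjusted p = 0.0419, limma adjusted p = 0.333). The lowest ICH array of Sema5a lay only 0.04 above the highest sham array. Its second probe gave 0.62 (limma unadjusted p = 0.0626). The other 9 membrane semaphorins lay between −0.38 and 0.36. Among these, Sema6c differed by −0.05 ± 0.13 (unadjusted p = 0.726), and its sign turned with quantile normalization (0.18) and with spike-in centring (0.38).

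No ephrin reached the threshold with all 6 arrays. Efna1 stood at −0.29, 0.33 and −0.04 on sham arrays and at 0.51, 1.06 and −0.10 on ICH arrays (0.49 ± 0.33, unadjusted p = 0.186), with ICH 3 inside the sham range. Without ICH 3 the difference of Efna1 was 0.78 (limma unadjusted p = 0.0339), and without ICH 2 it was 0.20. Efna2 differed by 0.34 ± 0.25, with the same value of 0.34 from its second probe. The first of these was 0.17 without ICH 3 and 0.54 without sham 3. Efnb3 was the 1 ephrin whose groups did not overlap, at 0.11, −0.06 and −0.06 on sham arrays and −0.17, −0.13 and −0.08 on ICH arrays, but by only 0.02 (−0.13 ± 0.12, unadjusted p = 0.341). The direction of Efnb3 turned with quantile normalization (0.055) and with spike-in centring (0.30). Efnb1, named after its values were seen, ran from −0.80 to 1.58 among ICH arrays.

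Eph receptors, the largest family of receptor tyrosine kinases, went both ways as well. Epha7 stood at 0.07, 0.07 and −0.14 on sham arrays and at 0.58, 0.30 and 1.41 on ICH arrays. Its difference was 0.76 ± 0.30 (unadjusted p = 0.0413, limma adjusted p = 0.331), of which ICH 3 gave the largest part, and without ICH 3 it was 0.44. Ephb1, a receptor for B-type ephrins, stood at 0.25, −0.17 and −0.09 on sham arrays and at −0.35, −1.13 and −0.39 on ICH arrays (−0.62 ± 0.25, unadjusted p = 0.0492, limma adjusted p = 0.339). Without ICH 2 the difference of Ephb1 was −0.37. Its second probe gave −0.41 (limma unadjusted p = 0.191). That probe stood at 0.02, −0.05 and 0.03 on sham arrays and at −0.07, −1.02 and −0.13 on ICH arrays. Its groups did not overlap either, but ICH 1 and ICH 3 lay close to the sham arrays.

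Epha4, a receptor that binds ephrins of both classes, was measured by a pair of probes whose differences were unequal. The probe used gave 0.07, −0.03 and −0.04 on sham arrays and 0.11, 0.14 and 0.44 on ICH arrays (0.23 ± 0.14, unadjusted p = 0.159). The other gave a difference of 0.58 ± 0.15 (limma unadjusted p = 0.00680), and on both probes the ICH arrays lay above the sham arrays. With normexp background correction Epha4 differed by 0.57. The probe with the highest mean was chosen anew there, so this value may come from the other probe. Epha4 reached an unadjusted p under 0.05 in 4 of 20 alternatives. With the mean of its probes the difference was 0.40 (limma unadjusted p = 0.0228). Epha1, named after its values were seen, had the largest downward difference of all 50 members, −1.05 ± 0.82 (unadjusted p = 0.245), with ICH arrays at −0.87, −2.76 and 0.47. The probe of Epha1 was well above background on 3 sham arrays but on only 2 ICH arrays.

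**Figure D2:**
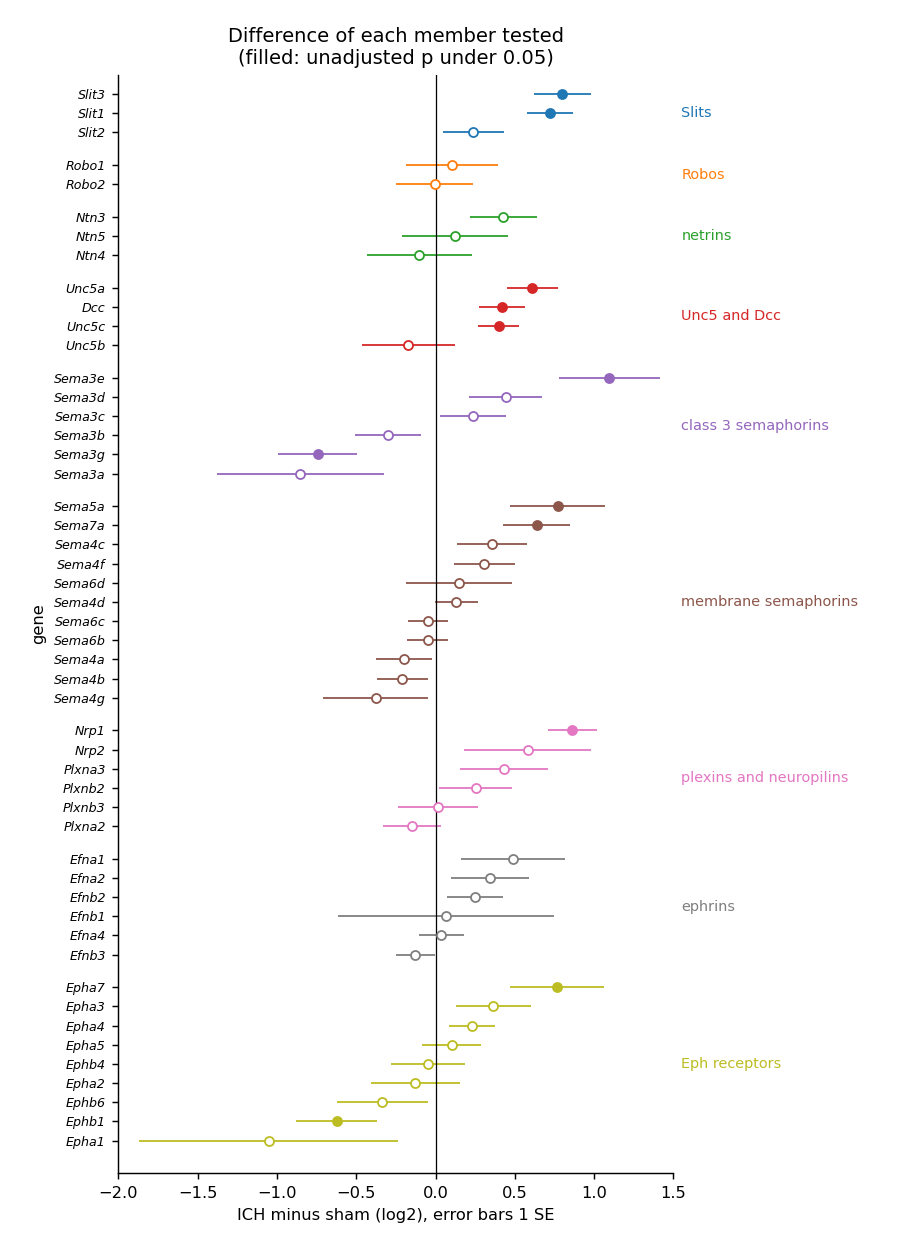
Difference, ICH minus sham on the log2 scale (horizontal axis, error bars 1 SE), of each of the 50 guidance genes tested, grouped by family; filled points have an unadjusted p under 0.05. The differences run from −1.05 for Epha1 to 1.10 for Sema3e, and 10 filled points lie above 0 against 2 below.

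Just inside the threshold lay Sema5a and Ephb1, with limma unadjusted p of 0.0419 and 0.0492, and just outside it Ntn3 and Sema3d, with 0.0851 and 0.102. Of the 15 genes with a second probe, 13 had the same sign on both. In 1, Unc5c, the unadjusted p was under 0.05 on both (limma, 0.0268 and 0.0467 with each probe as a row of its own). That second probe of Unc5c did not pass the filter, being well above background on 0 sham arrays and 2 ICH arrays. Its sham values were thus not well measured, and its p is no separate support.

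The count of 10 higher members moved with single arrays. It was 6 without sham 1, without sham 2 and without sham 3. It was 8 without ICH 1, of which 6 were among the 10. Without ICH 2 it was 10, of which 9 were among the first 10, and without ICH 3 it was 10, of which 7 were. Lower members numbered 0 without sham 1 or sham 3, 1 without sham 2, 3 without ICH 1 or ICH 3 and 2 without ICH 2. Over all rows, the share higher at this threshold was 3.08%, 3.47% and 3.54% without sham 1 to 3 and 4.49%, 8.49% and 9.63% without ICH 1 to 3. The share lower was 2.99%, 5.60% and 4.27% and then 6.84%, 11.0% and 11.5%. Slit1, Slit3, Nrp1 and Sema3e kept an unadjusted p under 0.05 in all 20 alternatives run, with differences of 0.64 to 1.15, 0.67 to 1.23, 0.77 to 1.29 and 0.72 to 1.76. The adjusted p of Nrp1 ran from 0.0755 to 0.740 over these alternatives. The signs of all 12 members at this threshold are no sign of stability, since their groups did not overlap and leaving out an array could not turn them.

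**Figure D3:**
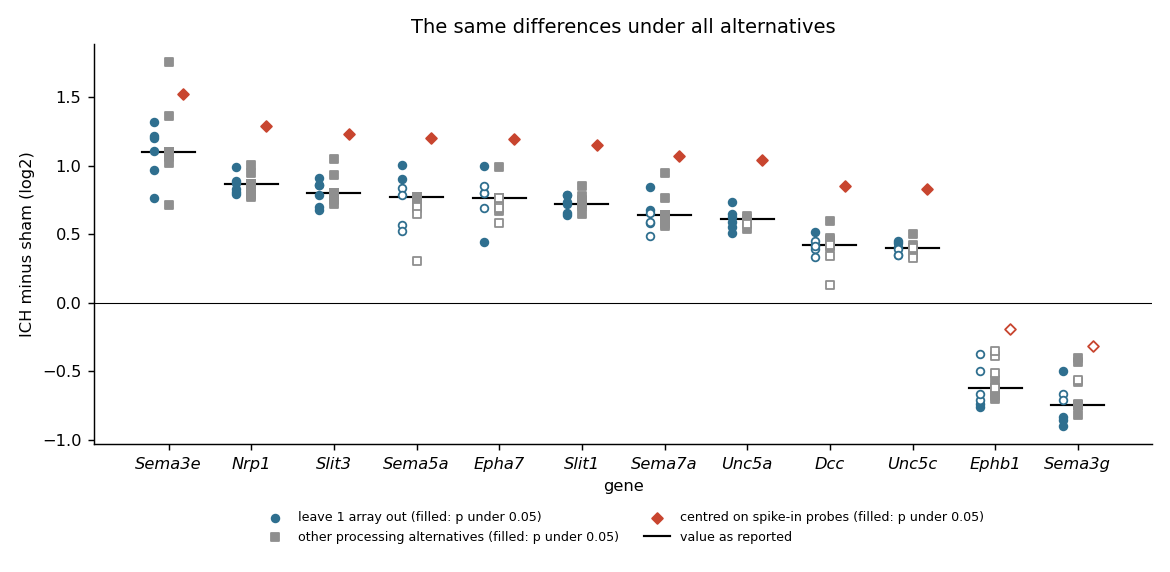
Difference, ICH minus sham on the log2 scale (vertical axis), of the 12 members at an unadjusted p under 0.05, under 20 alternatives; black bars are the values as reported, and filled points have an unadjusted p under 0.05. Open points, where p is 0.05 or more, occur for 8 of the 12 genes, and spike-in centring (diamonds) moves every gene upward.

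The ICH arrays differed among themselves. Of the 10 higher members, 7 were highest on ICH 1, 2 on ICH 3 and 1 on ICH 2, and 6 were lowest on ICH 2. Over all 50 members ICH 2 was the highest ICH array in 19, ICH 1 in 17 and ICH 3 in 14, and ICH 2 was the lowest in 23. The median of 6 myeloid markers was 1.94, 2.88 and −0.24 on the 3 ICH arrays, against −0.30 to 0.20 on sham arrays, so ICH 3 lay within the sham range there. Of the 6 markers 0 were higher and 1 was lower at an unadjusted p under 0.05. The part of these markers in the members' values was not tested.

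Markers of neuron types and of vessels also differed between the groups. Of 7 markers of striatal projection neurons 7 were lower, 5 at an unadjusted p under 0.05, with medians of 0.43, 0.50 and −0.94 on the 3 sham arrays and −0.96, −1.60 and −1.58 on the 3 ICH arrays. Of 5 tested markers of cortical excitatory neurons 5 were higher, 4 at that threshold, with medians of 0.37, −0.57 and 0.24 on sham arrays and 0.95, 1.56 and 1.06 on ICH arrays. All 5 general neuron markers on the array passed the filter, and they went both ways around a median difference of −0.12. Syt1 (0.65, limma unadjusted p = 0.00278) and Snap25 (0.27) had ICH arrays above all sham arrays, and Map2 (−0.41, limma unadjusted p = 0.0482) and Tubb3 (−0.59) had them below. Slits, Unc5a, Dcc, Sema3e and Epha7 are known from neurons whose amount differs between brain regions, and the part of these markers in their differences was not tested.

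Of 7 endothelial markers 5 were lower, 3 of them at an unadjusted p under 0.05, with medians of 0.02, −0.05 and 0.03 on sham arrays and −0.35, −0.45 and −0.25 on ICH arrays. Flt1 (0.05) and Esam (0.06) lay slightly above 0. On the probe used, Sema3g was lower on the 3 ICH arrays, while Nrp1, which endothelium also carries, was higher on each of them. The second probe of Sema3g gave −0.13 (limma unadjusted p = 0.494). Kdr, named after its values were seen and the receptor that pairs with Nrp1 for vascular endothelial growth factor, stood at −0.52, −1.02 and −0.25 on ICH arrays (−0.60 ± 0.21, unadjusted p = 0.0309, limma adjusted p = 0.314). The part of the endothelial markers in the values of Sema3g and Nrp1 was not tested. Markers of oligodendrocytes had medians of 0.39, −0.84 and −0.03 on the 3 ICH arrays and those of choroid plexus 0.68, 0.19 and 1.79, against sham medians of −0.31 to 0.14 and −1.08 to 1.42.

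**Figure D4:**
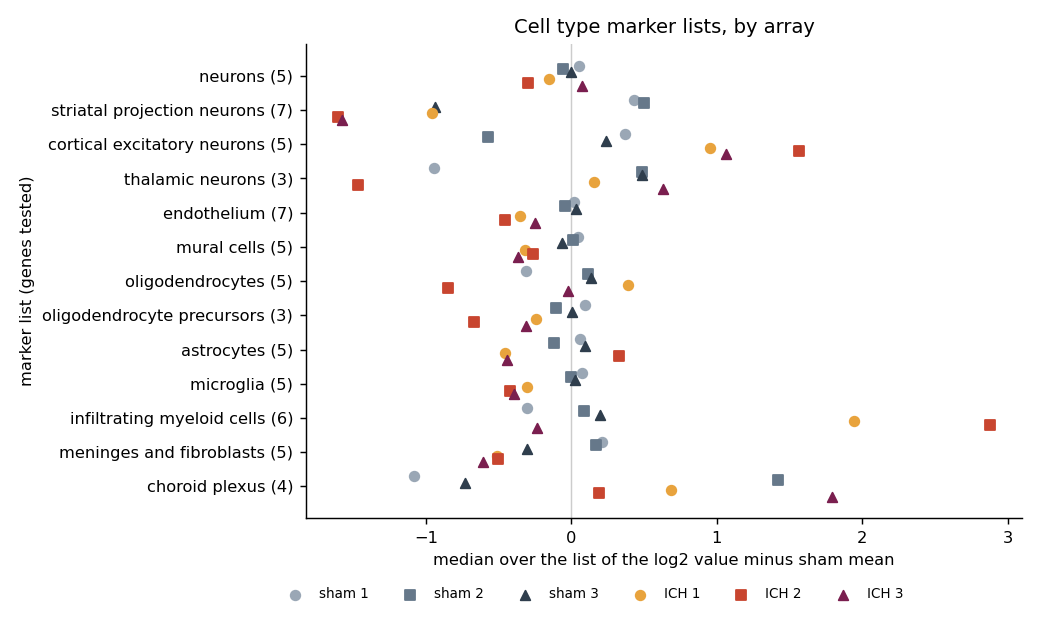
Median log2 value minus the sham mean (horizontal axis) of 13 lists of cell type markers, with the number of genes tested in brackets; each point is 1 array. The lists of striatal projection neurons, endothelium, mural cells, oligodendrocyte precursors, microglia and meninges lie lower on all 3 ICH arrays and that of cortical excitatory neurons higher, while infiltrating myeloid markers are high on ICH 1 and ICH 2 only. For striatal projection neurons sham 3 (−0.94) lies close to ICH 1 (−0.96).

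Genes that act behind the receptors were given by 4 lists. In these, 0 genes passed at an adjusted p under 0.05 by limma, and those named reached an unadjusted p under 0.05, as 6.16% of all rows did upward and 8.56% downward. Among 24 genes of semaphorin and plexin signalling 2 were higher and 4 lower, and the groups did not overlap for 3 upward and 8 downward. Over all rows the groups did not overlap for 11.0% upward and 16.5% downward. Mical1, an enzyme that oxidises actin below plexins, stood at 1.46, 0.54 and 0.99 on ICH arrays (1.00 ± 0.24, unadjusted p = 0.00625). Rnd3, a small GTPase, stood at −0.58, −0.54 and −0.65 (−0.59 ± 0.12, unadjusted p = 0.00285). Of 15 genes of Eph signalling 11 lay above 0, and the groups did not overlap for 5 upward and 1 downward. In this list 1 was higher and 1 lower: the kinase gene Cdk5 (0.39 ± 0.16) and Ngef, whose product acts below EphA receptors (−0.79 ± 0.19).

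Beside the counts of the next lists stand the shares over all rows. These were 6.16% higher and 8.56% lower at an unadjusted p under 0.05, and 11.0% upward and 16.5% downward without overlap. Of 20 partners of Slit, Robo and netrin signalling 1 was higher and 2 lower, and the groups did not overlap for 3 upward and 3 downward. Arhgap39, whose product binds Robo, was the higher one, at 0.85, 0.76 and 0.74 on ICH arrays and −0.03, −0.14 and 0.17 on sham arrays (0.78 ± 0.14, unadjusted p = 0.00110, limma adjusted p = 0.217). Flrt1, from a family of Unc5 ligands, differed by −0.45 ± 0.17. Among 14 genes of myelin inhibition and the growth cone skeleton 2 were higher and 2 lower, and the groups did not overlap for 2 upward and 2 downward. The receptor gene Rtn4r (0.57 ± 0.18) and its ligand Rtn4, Nogo (−0.74 ± 0.25), were on opposite sides.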

How the data were processed

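Total RNA of 6 rat brain samples, 3 sham and 3 ICH, was labelled with Cy3 and read on 1 Agilent array each. Per the file headers, the intensity of a spot came from Agilent Feature Extraction 11.5.1.1, with background subtracted and no scaling across arrays. The submitters' processing notes give 10.7. The deposited log2 table equals the values used here, after a constant for each array, within 0.001 for 396 of 402 values of member probes; its scale step was worked out from the values, and its column medians run from −2.77 to −2.61.

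Control spots and spots marked non-uniform (1 to 9 per array) were left out, the 75th percentile of an array's spots was subtracted from log2 intensity, and spots of a probe were averaged. Probes well above background (at least 0.5 of spots) on at least 3 of 6 arrays were kept. Accessions were matched to RefSeq symbols (18355 of 30367 probes with 1 symbol, 0 with several, 12012 with none), and a gene's probe with the highest mean was used. limma 3.58.1 in R 4.3.3 was fitted to all 22179 rows with Benjamini-Hochberg adjustment and was tested on simulated data. The p of a second probe comes from a fit with each probe as a row and no filter on dim probes.

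The members and lists were chosen with earlier results of these data known. Named were, in each family, the members at an unadjusted p under 0.05 (at most 5), otherwise the 2 with the largest difference, and the member with the highest mean; and the smallest p for each signalling list and direction. Other members given with values, such as Slit2, Unc5b and Nrp2, were named after their values were seen. The 20 alternatives covered background correction (normexp, offset 50, on median signals), centring, the deposited values, filters, marked spots, several probes, variance model, array weights, blocks and each array left out. Some items are not reported here. Python 3.11.15, numpy 2.4.6, pandas 2.3.3 and matplotlib 3.10.9 served for tables and plots.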

Additional observations from a re-analysis of the deposited data

How the results depend on the processing

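No member passed at an adjusted p under 0.05 in any of the 20 alternatives. Over all genes, 0 rows passed in the reported fit, 3 with normexp background correction, 3 with an intensity trend and robust variance, 6 with array weights, 2 with a filter on all 6 arrays and 33 with spike-in centring, and 0 to 36 with 1 array left out (8 without ICH 2 and 36 without ICH 3). Higher members numbered 6 with centring on the median and 19 with spike-in centring, and 6 to 10 with 1 array left out. With centring on the median 3.78% of all rows were higher at an unadjusted p under 0.05 and 10.3% lower. Lower members numbered 0 with spike-in centring, 1 without a filter (7.06% of all rows) and 1 with the mean of a gene's probes (8.16% of all rows). With 1 array left out they numbered 0 to 3. The median member was at 0.066 with centring on the median, 0.57 with spike-in centring and 0.20 with the mean of a gene's probes, and at 0.14 to 0.25 with 1 array left out. Spike-in centring moved the median of all rows from −0.04 to 0.39, so directions are relative to the typical gene. With it 22.7% of all rows were higher at an unadjusted p under 0.05 and 0.825% lower, against 38.0% and 0.0% of members.

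Signs turned in some of the other named genes. With quantile normalization Sema6c was 0.18, Plxnb3 −0.010 and Efnb3 0.055. With median centring Plxnb3 was −0.061, and with normexp Ntn5 was −0.025. With spike-in centring Robo2 was 0.42, Ntn4 0.33, Sema3b 0.13, Sema6c 0.38 and Efnb3 0.30. Ntn4 was 0.028 with the mean of its probes, 0.12 with array weights and 0.23 when blocked on the slide row. With 1 array left out, Robo1 ran from −0.12 to 0.38, Robo2 from −0.20 to 0.18, Ntn5 from −0.20 to 0.34, Ntn4 from −0.30 to 0.26, Sema6c from −0.11 to 0.016 and Plxnb3 from −0.22 to 0.21. The cause was not tested.

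The replicate numbers gave no sign of pairing. Deviations of same-numbered arrays correlated at −0.19, −0.01 and 0.07, and those of differently numbered arrays at −0.13 to 0.17. With 3 arrays in each group this check cannot exclude pairing. With the replicate block 7 members were higher and 2 lower at an unadjusted p under 0.05, against 4.14% and 6.72% of all rows. Blocking on the slide row sets ICH 1 alone against the sham arrays, because ICH 2 and ICH 3 shared no slide row with a sham array. For ICH 2 and ICH 3, group and slide row cannot be told apart. With this block the median member was at 0.16. Sema5a was at 0.31 and Ephb1 at −0.35, smaller than in the reported fit, and Sema3e at 1.76 was larger.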
